A study of Mus musculus with 6 samples.

Results

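Described are 9 genes of the S100 family of calcium-binding proteins, S100a1, S100a3, S100a4, S100a6, S100a7a, S100a10, S100a11, S100a13 and S100a16, out of 54532 genes in the deposited FPKM table (reads scaled by gene length and by library depth). They were matched by gene symbol. They were proposed with the difference between knockdown and control in these libraries in view, so that difference is given for each of them as a description, without a test.

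The S100 genes encode small calcium-binding proteins that work as dimers. Each subunit carries a pair of EF-hands, the helix-loop-helix motif that holds a calcium ion, and binding of calcium exposes a surface that grips a target protein. Inside cells the dimers dock on annexins, myosin and other cytoskeletal or membrane proteins, and some are released and act on receptors at the surface of other cells. In fibroblasts S100a4 and S100a6 are known for their link to motility and proliferation, and S100a10 and S100a11 for their complexes with annexins.

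RNA-seq was performed on total RNA of mouse embryonic fibroblasts that carry the adenoviral oncoprotein E1A and the activated Ras form HRasV12. The 3 control libraries expressed a hairpin labelled shLuc and the 3 knockdown libraries a hairpin against Mettl3, the catalytic subunit of the m6A writer; both groups received doxorubicin, a topoisomerase II poison, at 0.2 ug/ml for 6 hours. No library without doxorubicin was analysed here. The authors' own gene table carries the number 2 after shMettl3 in its column names, no other hairpin against Mettl3 was analysed here, and the labels do not say whether cells were cloned or pooled.

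Recovered depth was 17001640 to 20132541 reads in shLuc_dox and 17652952 to 25464040 in shMettl3_dox. Mettl3 was at 2.47, 3.14 and 2.59 FPKM in the control libraries and at 1.29, 1.53 and 1.65 FPKM in the knockdown libraries, a ratio of means of 0.545. The shMettl3_dox replicate 3 library stood apart: it differed most from its partners, the chi-square of recovered reads over its degrees of freedom being 11.1 and 12.8, where other pairs within a group gave 3.36 to 4.42, so S100 values are also given without it. Of 10 fibroblast markers 4 reached a mean of 1 FPKM. All 10 together summed to 894 to 947 FPKM in shLuc_dox and 777 to 852 in shMettl3_dox, nearly all of it Vim and Fn1. The collagen genes Col1a1, Col1a2 and Col3a1 were below 1 FPKM on average in both groups and Thy1, Dcn and Lum were near 0. Of 8 epithelial markers 3 were measured, with Krt14 and Krt1 at 0 in every library. All 8 together summed to 51.9 to 57.8 FPKM in shLuc_dox and 33.2 to 40.0 in shMettl3_dox, mostly Krt18. Of 7 myeloid markers only Cd14 was measured, and Des alone of 5 muscle markers. All 7 myeloid markers together summed to 7.57 to 9.34 FPKM in shLuc_dox and 5.73 to 6.65 in shMettl3_dox. All 5 muscle markers together summed to 5.95 to 6.81 and 2.62 to 3.30 FPKM. The 4 endothelial markers summed to 0.322 to 0.386 FPKM in shLuc_dox and 0.210 to 0.362 in shMettl3_dox, and the 6 neural and glial markers to 0.748 to 1.15 and 0.634 to 1.00. The part of these markers in the S100 values was not tested, and in bulk RNA fewer cells of a type and less RNA per cell cannot be told apart.

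S100a6 dominated the family. This gene, which encodes calcyclin, a dimer known to bind the ubiquitin-ligase adaptor CacyBP and several annexins, stood at 2170, 2097 and 2054 FPKM in shLuc_dox, the 7th highest mean level of all genes. S100a11 followed at 488, 440 and 455 FPKM, then S100a10 at 122, 120 and 119 FPKM and S100a13 at 42.3, 42.2 and 43.1 FPKM. S100a1 was next at 5.15, 7.88 and 6.94 FPKM. Each of these 5 genes lay above the next in every control library, without overlap of their ranges, and the same order held in shMettl3_dox. S100a6 alone made up 76.6 to 77.4 percent of the summed FPKM of the 9 genes in shLuc_dox and 67.9 to 74.6 percent in shMettl3_dox. In recovered reads the 9 genes took 0.319 to 0.340 percent of each control library and 0.295 to 0.370 percent of each knockdown library.

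The remaining 4 genes were close to the detection limit in control cells. S100a7a and S100a16 lay near 1 FPKM in shLuc_dox, with overlapping ranges, and S100a3 and S100a4 below these, at 0.340 FPKM or less. S100a4, long used as a fibroblast marker under the name Fsp1, was represented by 2, 1 and 0 reads in the control libraries. Of the 9 genes, 6 averaged 1 FPKM or more over all libraries, called measured below, and so entered the fit across genes; S100a3, S100a4 and S100a16 did not. S100a7a passed only through its level in the knockdown libraries.

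**Figure D1:**
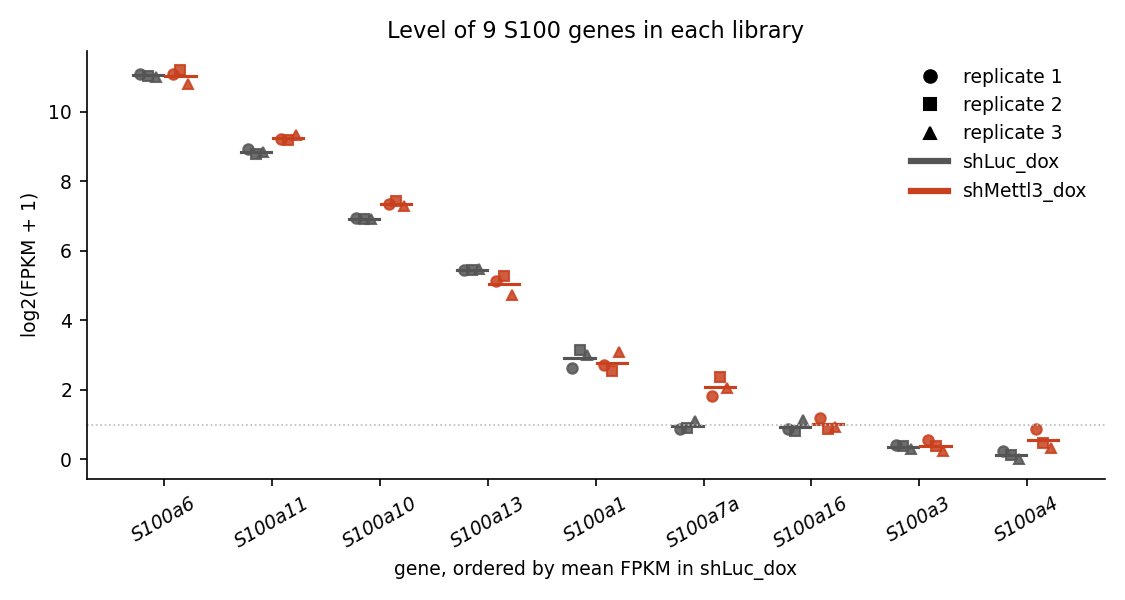
Level of the 9 S100 genes as log2(FPKM + 1) in each of the 6 libraries; symbols mark replicates, short lines the mean of 3 libraries, and the dotted line a level of 1 FPKM. S100a6 is highest in both groups, and S100a7a, S100a16, S100a3 and S100a4 lie near or below the dotted line in shLuc_dox.

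All 9 genes lie on mouse chromosome 3 (GRCm38, the assembly of mm10, GENCODE M21). S100a1 to S100a9 span 185 kb, and S100a11 and S100a10 form a pair 2825 kb farther on. S100a1 (90511034 to 90514392, minus strand) and S100a13 (90514435 to 90524581, plus strand) are transcribed away from each other with 42 bases between them. S100a16 (90537254 to 90543151), S100a3 (90560578 to 90602702), S100a4 (90603771 to 90606045), S100a6 (90612882 to 90624181) and S100a7a (90654017 to 90658669) follow on the plus strand. S100a11 (93520488 to 93526287) and S100a10 (93555080 to 93564643), also on the plus strand, are separated by 28792 bases. Exons of the predicted gene Gm42674, at most 0.133 FPKM in any library, cover 51.7 percent of the exon bases of S100a4. They cover 2.54 percent of those of S100a3. How reads on shared exons were counted is not stated, so reads of these low genes could be left uncounted. Gm42674 was at 0 FPKM in all libraries but shLuc_dox replicate 3, and could have taken reads in that library alone. The processed pseudogene S100a11-ps was at 0 FPKM in all libraries.

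S100a10 and S100a11, the neighbours that serve annexins, were both higher in all knockdown libraries. S100a10 encodes p11, whose own EF-hands no longer bind calcium and which forms a stable tetramer with annexin A2. Control libraries held 122, 120 and 119 FPKM of it, and knockdown libraries 160, 171 and 156 FPKM. Every knockdown library lay above every control library. The means were 120 ± 1.52 and 162 ± 7.59 FPKM (SD, n = 3 each), a ratio of 1.35, and the difference in log2(FPKM + 1) was 0.43 (SE 0.0451), or 0.46 without shMettl3_dox replicate 3. Each SE given here and below is limma's moderated value. It borrows from the spread of other genes, so it can be smaller or larger than the gene's own values would give.

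S100a11 encodes calgizzarin, which binds annexin A1. It was at 488, 440 and 455 FPKM in shLuc_dox and at 588, 577 and 648 FPKM in shMettl3_dox. Here too the groups did not overlap, and shMettl3_dox replicate 3 was the highest library. The means were 461 ± 24.5 and 604 ± 38.3 FPKM, a ratio of 1.31, with a log2 difference of 0.39 (SE 0.0646), or 0.34 without that library. S100a11 and S100a10 rest on 3914 to 7571 and 2424 to 4888 recovered reads per library.

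The 300 bases around the RefSeq start of S100a11 (GRCm38.p6, chr3:93520246-93520545, plus strand, 250 before the start and 50 after) are shown because this gene was the higher of the pair in level. S100a10 was not matched in the promoter table, which held 8 of the 9 genes. Capitals mark the AP-1 motif TGANTCA, the E-box CACGTG and the GC box GGGCGG, searched on both strands.
S100a11: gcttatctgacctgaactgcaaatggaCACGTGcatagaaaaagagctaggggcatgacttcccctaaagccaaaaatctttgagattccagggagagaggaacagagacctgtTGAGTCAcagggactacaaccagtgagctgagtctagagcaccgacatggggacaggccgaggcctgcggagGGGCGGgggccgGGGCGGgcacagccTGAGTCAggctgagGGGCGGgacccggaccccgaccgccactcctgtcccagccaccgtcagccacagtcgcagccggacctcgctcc
The window holds 2 AP-1 motifs, at 136 and 38 bases before the start, 1 E-box and 3 GC boxes. The AP-1 letters occur in 7.81 percent of all 32851 windows of this length in the table, the E-box in 7.15 percent and the GC box in 35.7 percent. The motifs were chosen with these sequences in view, and a match is a description of the letters alone.

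S100a7a had the largest relative difference of the measured members. It belongs to the family of psoriasin, a human S100 protein of inflamed skin. It was at 0.838, 0.866 and 1.17 FPKM in shLuc_dox and at 2.56, 4.15 and 3.13 FPKM in shMettl3_dox. All knockdown libraries exceeded all control libraries, and replicate 2 was highest. The means were 0.957 ± 0.181 and 3.28 ± 0.804 FPKM, a ratio of 3.43. The log2(FPKM + 1) difference of 1.12 (SE 0.153) understates a change at this level; with a pseudocount of 0.1 it was 1.67, and edgeR and DESeq2 on recovered reads both gave 1.76. Without shMettl3_dox replicate 3 the log2(FPKM + 1) difference was 1.13. These values rest on 21, 24 and 27 reads in the control libraries and 89, 100 and 87 in the knockdown libraries.

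The corresponding window of S100a7a (GRCm38.p6, chr3:90654052-90654351, plus strand) is given as that of the member with the largest ratio among the measured genes. Capitals mark GGAATG, the core letters bound by TEAD factors, on either strand.
S100a7a: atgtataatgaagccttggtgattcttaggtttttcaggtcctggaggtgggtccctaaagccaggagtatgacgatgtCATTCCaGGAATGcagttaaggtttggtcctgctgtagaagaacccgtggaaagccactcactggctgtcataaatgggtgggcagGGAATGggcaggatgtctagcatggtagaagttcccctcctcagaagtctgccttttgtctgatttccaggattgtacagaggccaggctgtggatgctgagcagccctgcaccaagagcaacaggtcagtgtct
The letters occur 3 times, at 171, 164 and 85 bases before the RefSeq start, and 14.7 percent of all windows hold them at least once. GENCODE starts the gene earlier, at 90654017, so by that annotation the whole window lies within the gene. None of the AP-1, E-box, GC box and TATAAA letters is in this window.

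S100a13 was the one measured member whose knockdown libraries all lay below the control libraries. Its protein takes part in the release of FGF1 and interleukin 1 alpha, which lack a signal peptide. It was at 42.3, 42.2 and 43.1 FPKM in shLuc_dox and at 33.8, 37.5 and 25.5 FPKM in shMettl3_dox. The control values lay within 1 FPKM of each other, whereas the knockdown values were spread, with replicate 3 lowest. The means were 42.5 ± 0.474 and 32.2 ± 6.16 FPKM, a ratio of 0.759. The log2 difference was -0.41 (moderated SE 0.127), and -0.25 without shMettl3_dox replicate 3, where the ratio was 0.838. The pooled SD of the gene's own log2(FPKM + 1) values within groups was 0.198. S100a13 alone of the 9 is listed among the 1960 genes of the authors' deposited table, which holds genes called lower, with the authors' log2 fold change of -0.39; that list was chosen on these same libraries.

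S100a1, the heart and muscle member that acts on calcium release channels, starts within a short distance of S100a13 on the opposite strand, and its values overlapped between the groups. It was at 5.15, 7.88 and 6.94 FPKM in shLuc_dox and at 5.54, 4.86 and 7.51 FPKM in shMettl3_dox. Replicate 3, lowest of the knockdown libraries for S100a13, was highest for S100a1. The means were 6.65 ± 1.39 and 5.97 ± 1.37 FPKM and the log2 difference was -0.14 (SE 0.175), on 59 to 110 reads per library. The difference was -0.29 without replicate 1 of shLuc_dox or replicate 3 of shMettl3_dox, and -0.02 without replicate 2 of either group.

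The RefSeq starts of this divergent pair are 104 bases apart, and their promoter windows share 204 bases. The window of S100a13 (GRCm38.p6, chr3:90514185-90514484, plus strand) is shown for that reason, with the stretch between the starts in capitals.
S100a13: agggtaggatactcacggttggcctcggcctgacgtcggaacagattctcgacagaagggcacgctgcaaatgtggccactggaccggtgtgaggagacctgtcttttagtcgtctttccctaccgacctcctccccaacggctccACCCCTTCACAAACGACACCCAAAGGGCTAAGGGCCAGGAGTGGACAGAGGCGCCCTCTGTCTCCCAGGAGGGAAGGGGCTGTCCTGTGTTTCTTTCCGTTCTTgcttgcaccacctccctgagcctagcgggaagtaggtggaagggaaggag
None of the searched AP-1, TEAD, E-box, GC box or TATAAA letters is in the windows of S100a13 or S100a1.

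S100a6 did not separate the groups. It was at 2170, 2097 and 2054 FPKM in shLuc_dox and at 2161, 2339 and 1782 FPKM in shMettl3_dox. The knockdown libraries lay on both sides of the controls, with replicate 2 the highest of all 6 and replicate 3 the lowest. The means were 2107 ± 58.4 and 2094 ± 285 FPKM, a ratio of 0.994. The log2 difference was -0.02 (SE 0.103), and 0.09 without shMettl3_dox replicate 3. On 47244 to 74496 reads per library, counting error was small beside this spread.

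Because S100a6 is so abundant, the summed FPKM of the 9 genes followed it, at 2681 to 2829 in shLuc_dox and 2623 to 3135 in shMettl3_dox. Without S100a6 the sum was 612 to 659 FPKM in the control libraries and 792 to 842 FPKM in the knockdown libraries, with S100a11 the main contributor. The ratio of S100a11 to S100a6 was 0.225, 0.210 and 0.222 in shLuc_dox and 0.272, 0.247 and 0.364 in shMettl3_dox, so it was higher in each knockdown library and furthest out in replicate 3.

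The window of S100a6 (GRCm38.p6, chr3:90612644-90612943, plus strand), the most abundant member, is shown with its single E-box CACGTG in capitals, which begins 14 bases after the start.
S100a6: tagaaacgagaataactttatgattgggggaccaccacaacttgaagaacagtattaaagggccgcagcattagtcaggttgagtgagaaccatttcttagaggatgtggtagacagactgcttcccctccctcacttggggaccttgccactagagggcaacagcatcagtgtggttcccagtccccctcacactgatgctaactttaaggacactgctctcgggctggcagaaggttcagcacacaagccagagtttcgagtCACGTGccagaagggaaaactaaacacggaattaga

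**Figure D2:**
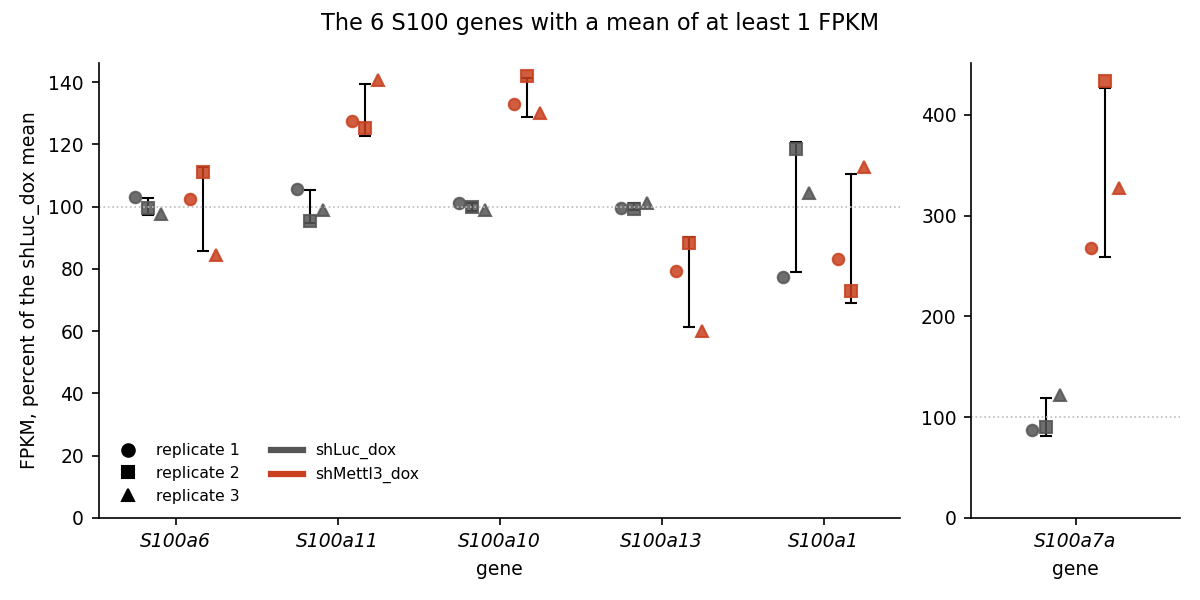
FPKM of the 6 measured S100 genes, as percent of the gene's shLuc_dox mean, in each library; bars show the mean ± SD of 3 libraries and the right panel has its own axis. S100a11 and S100a10 lie above 100 percent in all knockdown libraries and S100a13 below, while S100a6 and S100a1 lie on both sides.

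The 3 members below 1 FPKM give little to compare. S100a4, which encodes the metastasis-linked partner of nonmuscle myosin IIA, was at 0.188, 0.0851 and 0 FPKM in shLuc_dox and at 0.815, 0.392 and 0.255 FPKM in shMettl3_dox. The groups did not overlap, but the values stand for 3 reads in all control libraries and 19 in all knockdown libraries, 12 of these in replicate 1. The ratio per depth was 5.52, with an exact 95 percent counting interval of 1.62 to 29.1. That interval covers counting error of the pooled reads and not the spread between libraries, so it is no test of a difference. S100a3, a hair cuticle protein gene, was at 0.340, 0.299 and 0.221 FPKM and at 0.462, 0.293 and 0.175 FPKM. S100a16, a widely expressed member, was at 0.816, 0.769 and 1.21 FPKM and at 1.28, 0.848 and 0.920 FPKM. For both, the groups overlapped and the ratio per depth was 1.11 and 1.13, with intervals of 0.837 to 1.48 and 0.836 to 1.52 that cover counting error only.

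Counted over the 6 measured members, 3 lay higher and 1 lower in all shMettl3_dox than in all shLuc_dox libraries, and 2 overlapped. Over all 12098 genes tested the groups did not overlap in 45.1 percent, 23.6 percent higher and 21.5 percent lower, and limma called 28.1 percent at an adjusted p under 0.05. The median log2 difference was 0.19 over these members and 0.01 over all genes tested. This contrast chose the members, and S100a7a was measured only through its level in the knockdown libraries. Nothing is therefore read from the counts or from the median.

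The other S100 genes were silent or nearly so. Of 14 further members and fused S100 genes on the list, none reached a mean of 1 FPKM and 8 were at 0 in all libraries, among them S100a8 and S100a9, which form the calprotectin of neutrophils. S100a5 was at 0.127, 0 and 0.413 FPKM in shLuc_dox and at 0.551, 0.397 and 0.230 FPKM in shMettl3_dox. S100b, the glial member, reached at most 0.267 FPKM, and S100a14 and S100g reached at most 0.265 and 0.344 FPKM. S100a2, which lies within the span of S100a3 and was looked up after the lists were made, was at 0.349, 2.05 and 0.566 FPKM in shLuc_dox and at 0.252, 0 and 0.315 FPKM in shMettl3_dox, on 0 to 13 reads.

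The annexins, calcium-dependent membrane-binding proteins and the best-known S100 targets, were tested across all genes with limma on log2(FPKM + 1), two-sided, with Benjamini-Hochberg adjustment. Of 9 measured annexin genes, 4 rose, 0 fell and 5 did not pass, with a median log2 difference of 0.29. Among all genes tested 14.6 percent were higher and 13.5 percent lower, with a median of 0.01. The count of 0 lower annexins was also found by edgeR and DESeq2, and limma had 0 at an unadjusted p under 0.05. The 4 annexins rose in each fit that left out 1 library. With each library scaled to its protein-coding sum, 1264 genes were higher and 1922 lower in place of 1763 and 1633. Without shLuc_dox replicates 1, 2 and 3 and shMettl3_dox replicate 1 the higher genes numbered 1062, 1021, 1149 and 1061, and without shLuc_dox replicate 2 the lower genes numbered 1057.

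Anxa2, the partner of S100a10, was at 140, 137 and 141 FPKM in shLuc_dox and at 202, 202 and 191 FPKM in shMettl3_dox. It rose from 139 ± 1.92 to 199 ± 6.56 FPKM (log2 difference 0.51, SE 0.0409, limma adjusted p = 0.000428). The ratio of S100a10 to Anxa2 FPKM was 0.870, 0.875 and 0.843 in the control libraries and 0.790, 0.844 and 0.818 in the knockdown libraries. These ranges overlapped. Anxa1, the partner of S100a11, was at 33.5, 37.0 and 34.1 FPKM in shLuc_dox and at 58.6, 59.6 and 68.7 FPKM in shMettl3_dox. It had the largest rise of the annexins (0.82, SE 0.0710, limma adjusted p = 0.000558), with replicate 3 highest as for S100a11. Anxa3 rose by 0.50 and Anxa4 by 0.48. Anxa5, the most abundant annexin gene of the list at 208 ± 0.254 and 209 ± 5.88 FPKM, did not pass (0.01, limma adjusted p = 0.936), nor did Anxa6 (0.10, limma adjusted p = 0.126), Anxa7, Anxa9 and Anxa11.

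**Figure D3:**
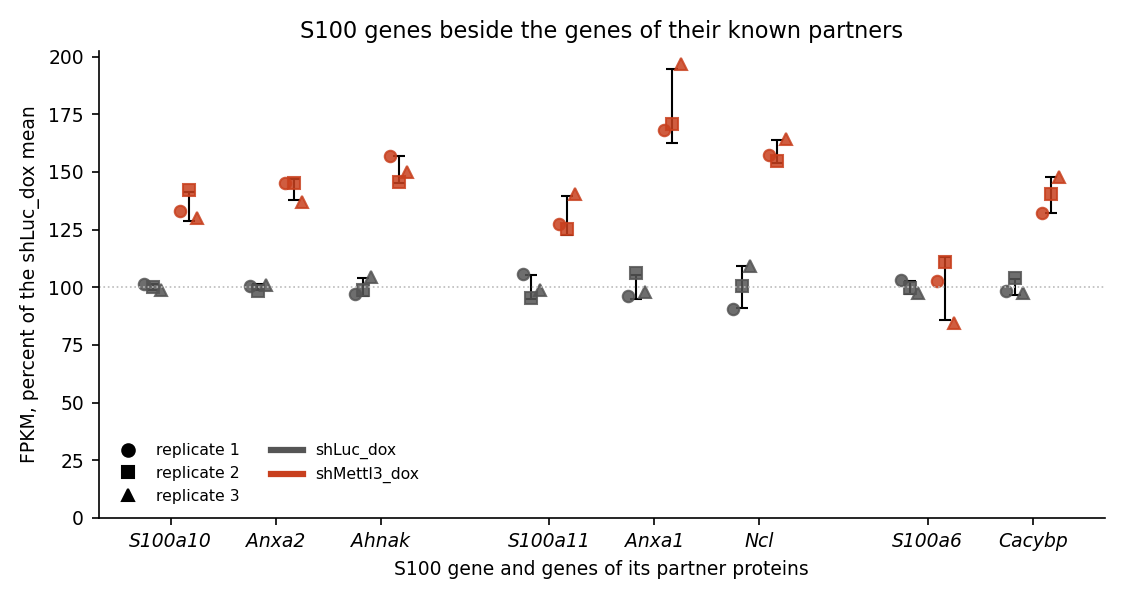
FPKM as percent of the gene's shLuc_dox mean, by library, for S100a10 with Anxa2 and Ahnak, S100a11 with Anxa1 and Ncl, and S100a6 with Cacybp; bars show the mean ± SD of 3 libraries. The partner genes shown were all called higher and lie above 100 percent in all knockdown libraries, while S100a6 lies on both sides of it. They do not stand for all partners: of 23 measured genes of other partners and receptors 5 rose and 5 fell, and none that fell is shown.

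Among genes of other S100 partners and receptors, 5 rose, 5 fell and 13 did not pass of 23 measured, with a median log2 difference of 0.05. That is 21.7 percent in each direction, where all genes tested gave 14.6 percent higher and 13.5 percent lower. The rises numbered 4 to 6 when 1 library was left out, and 7 with edgeR and with DESeq2. Ahnak, a giant scaffold protein held by the S100a10 and annexin A2 complex, rose from 51.2 ± 1.95 to 77.2 ± 2.94 FPKM (0.58, limma adjusted p = 0.000414). Ncl, which encodes nucleolin, described as a carrier of S100A11 into the nucleus in human keratinocytes, rose from 116 ± 10.7 to 185 ± 5.78 FPKM (0.67, limma adjusted p = 0.00108). Cacybp, the S100a6 partner, rose from 59.8, 63.2 and 59.2 FPKM to 80.3, 85.2 and 89.6 FPKM (0.48, limma adjusted p = 0.00124), and the tubulin gene Tubb5 by 0.37. Myh9, the myosin heavy chain bound by S100a4, stood at 69.4 ± 3.48 and 69.7 ± 4.08 FPKM (0.01, limma adjusted p = 0.958).

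Mcam and Bsg, genes of surface receptors for S100 proteins, both fell. Alcam (0.10, limma adjusted p = 0.270) and Nptn (0.02, limma adjusted p = 0.845), surface protein genes of the same list, did not pass. Mcam, a surface adhesion molecule that binds extracellular S100 proteins, fell from 10.2 ± 0.785 to 4.07 ± 0.113 FPKM (-1.14, SE 0.0648, limma adjusted p = 0.000127). Bsg, the gene of basigin, fell by 0.14 (limma adjusted p = 0.0391). S100pbp, named for its binding of human S100P, fell from 10.8 ± 0.0312 to 8.80 ± 0.121 FPKM (-0.27, limma adjusted p = 0.00395). Ager, the gene of the receptor RAGE, was at 0.823 ± 0.116 and 0.764 ± 0.116 FPKM and Tlr4 at 0.814 ± 0.134 and 0.792 ± 0.0638 FPKM, below the limit for testing. The 5 falls numbered 3 on leaving out shLuc_dox replicate 1, 2 or 3 or shMettl3_dox replicate 1. Bsg and Capzb then lost their calls (limma adjusted p of 0.0996 to 0.132 and of 0.0727 to 0.105). The call of Bsg was also lost without shMettl3_dox replicate 2, without the filter on low values and with replicate number as a block (limma adjusted p of 0.0834, 0.154 and 0.0587).

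Plasminogen activation, the surface reaction that S100a10 is known to promote, was tested through 8 measured genes, of which 3 fell and 1 rose, with a median log2 difference of 0.06. The share lower was 37.5 percent, against 13.5 percent of all genes tested, and the share higher 12.5 percent, near the 14.6 percent of all genes. Plau, the gene of urokinase, fell from 93.7 ± 2.77 to 37.3 ± 2.19 FPKM (-1.31, SE 0.0517, limma adjusted p = 6.08e-05). Plat, which encodes the tissue activator, fell from 12.8 ± 0.705 to 7.83 ± 0.469 FPKM (-0.65). Plaur, the urokinase receptor gene, went from 45.9 ± 2.18 to 53.8 ± 3.58 FPKM (0.22, limma adjusted p = 0.0339). Leaving out replicate 2 or 3 of shLuc_dox, or replicate 1 or 2 of shMettl3_dox, ended that call (limma adjusted p of 0.0939 to 0.104). Plg itself was near 0. The falls of Plau and Plat passed in all fits that left out 1 library.

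Of 34 measured genes of other EF-hand proteins, 12 rose, 2 fell and 20 did not pass, with a median log2 difference of 0.10. Higher genes made up 35.3 percent of the list and lower genes 5.88 percent, against 14.6 and 13.5 percent of all genes tested. Capn2, the catalytic subunit of the calcium protease m-calpain, rose from 42.0 ± 1.92 to 72.3 ± 3.22 FPKM (0.77, limma adjusted p = 0.000223). The matrix protein gene Sparc rose by 0.33, the calmodulin gene Calm3 by 0.24, and the penta-EF-hand genes Sri and Pef1 by 0.23 and 0.26. Stim1, the calcium sensor of the endoplasmic reticulum, fell from 9.27 ± 0.165 to 6.58 ± 0.263 FPKM (-0.44, limma adjusted p = 0.00131). The rises numbered 8 to 13 when 1 library was left out, with 8 on leaving out replicate 2 of either group.

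**Figure D4:**
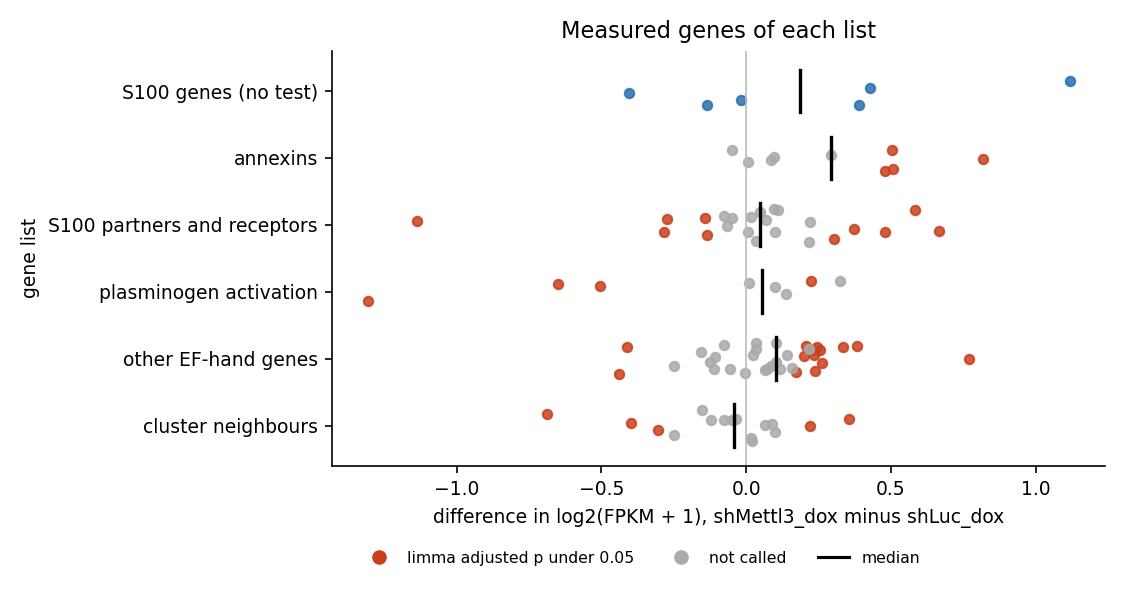
Difference in log2(FPKM + 1), shMettl3_dox minus shLuc_dox, for each measured gene of each list; red points have a limma adjusted p under 0.05, grey points do not, blue points are the S100 genes, which were not tested, and black lines are medians. The annexins called all lie to the right of 0, and every other list tested has calls on both sides.

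Within 500 kb of the 9 genes the annotation places 39 other protein-coding genes, of which 16 were measured, all beside the block from S100a1 to S100a9. Of these 2 rose, 3 fell and 11 did not pass, with a median log2 difference of -0.04. These shares, 12.5 percent higher and 18.8 percent lower, are near the 14.6 and 13.5 percent of all genes tested, so they show nothing particular to the neighbours. Npr1, a natriuretic peptide receptor gene, fell from 3.38 ± 0.281 to 1.72 ± 0.140 FPKM (-0.69, limma adjusted p = 0.00213), Gatad2b changed by -0.31 and Dennd4b by -0.40, and Jtb and Snapin changed by 0.36 and 0.22. The rises numbered 1 on leaving out shLuc_dox replicate 1 or 2 or shMettl3_dox replicate 2. They numbered 0 on leaving out shLuc_dox replicate 3 or shMettl3_dox replicate 1, with limma adjusted p of 0.0560 and 0.0587 for Jtb and 0.0579 and 0.0657 for Snapin; edgeR, DESeq2 and limma unadjusted each had 2 with every library kept. Dennd4b passed in the fit without shMettl3_dox replicate 3 and in no other that left out 1 library (limma adjusted p of 0.0581 to 0.105). Beside S100a11 and S100a10 no other protein-coding gene in the window was measured, and 18 of the 39 were at 0 in all libraries.

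**Figure D5:**
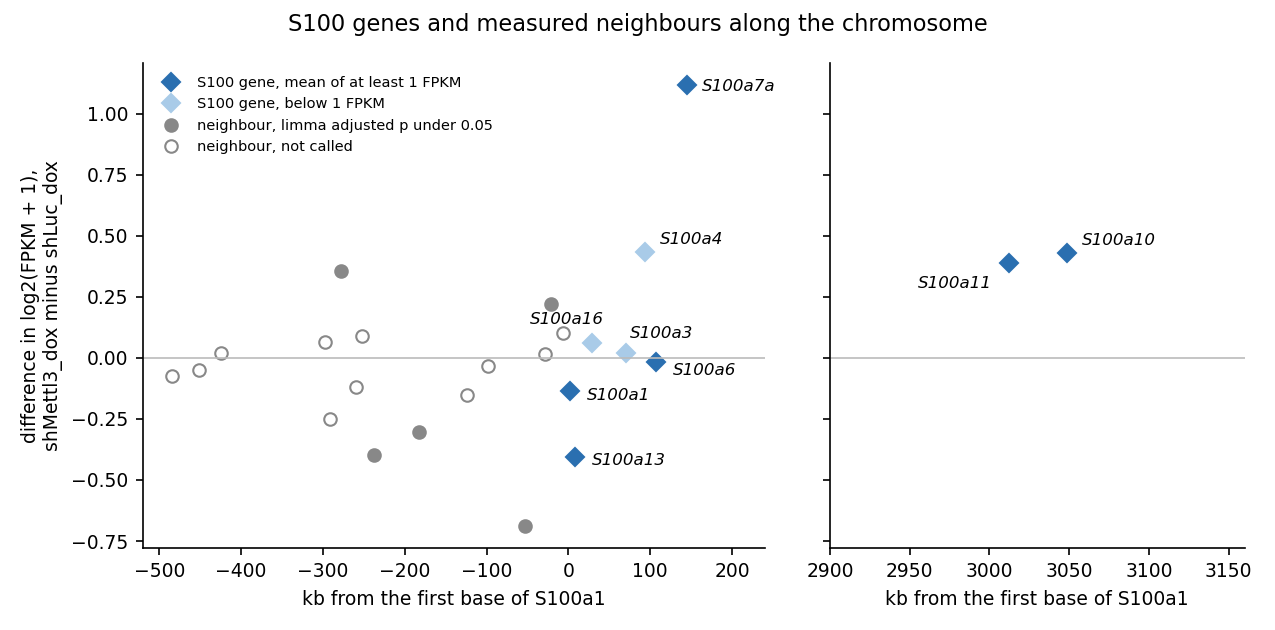
Difference in log2(FPKM + 1), shMettl3_dox minus shLuc_dox, by distance in kb from the lowest base of S100a1; diamonds are S100 genes (pale where the mean was below 1 FPKM) and circles measured neighbours (filled where the limma adjusted p was under 0.05). S100a7a (1.12), S100a10 (0.43) and S100a11 (0.39) lie above 0 and S100a13 (-0.41) below, and neighbours of the first block lie on both sides of 0.

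For each measured member, the protein-coding gene outside the family with the highest Pearson correlation of log2(FPKM + 1) over the 6 libraries was Herpud1 for S100a10 (0.999), Stambpl1 for S100a11 (0.999), Rab11fip1 for S100a13 (0.998), Dhx33 for S100a7a (0.996), Ndufb8 for S100a6 (0.989) and Cep162 for S100a1 (0.980). The points share library and group, and the best of many genes over so few libraries is high by choice, so these values describe likeness alone. For S100a6 the likeness lies within both groups. Ndufb8 was at 24.5, 24.2 and 21.7 FPKM in shLuc_dox, falling from replicate 1 to 3 as S100a6 did. In shMettl3_dox it was at 24.1, 27.8 and 16.7 FPKM, with replicate 2 highest and replicate 3 lowest, as for S100a6, S100a10 and S100a13.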

How the data were processed

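Total RNA of 6 libraries was sequenced. Per the submitters' processing notes, mm10 was the build, and DESeq2, STAR, fastp and featureCounts 1.5.3 were used, in roles not stated. The strand setting of counting is likewise not stated. The authors deposited FPKM for 54532 genes, and a table of 1960 lower genes with normalized read counts (a signal: reads divided by 1 factor per library), the authors' log2 fold changes and, beside them, their p-values.

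Whole reads were recovered, within 0.001 of a read, from 100% of the normalized counts and from FPKM with GENCODE M21 exon lengths for 96.7% of the 26328 genes above 0; the other 872 took another whole-number length. The FPKM divisor differed from the recovered total by -1.20 to 0.04 percent.

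The test was limma 3.58.1 (R 4.3.3) on log2(FPKM + 1), eBayes with trend, for 12098 genes averaging 1 FPKM or more, adjusted p threshold 0.05, which understates changes of low genes. Alternatives were a pseudocount of 0.1, no filter, other scalings, a replicate block, edgeR 4.0.16 and DESeq2 1.42.0 on recovered reads, and leaving out each library. The fits were tested on simulated data. Python 3.11.15, numpy 2.4.6, pandas 2.3.3, scipy 1.17.1 and matplotlib 3.10.9 were used. Promoters are RefSeq (GRCm38.p6).

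Members and lists were chosen with earlier results of these data known. Named are the members, Mettl3, other S100 genes, up to 6 called genes per list by smallest p, Anxa1, Anxa2, Ahnak, Myh9, Cacybp and Ager, and the most correlated gene; other names were added after their values were seen. A gene that this rule names is not reported here. The labels do not say that replicates were separate cultures, so p-values measure the spread between these libraries only, which may be technical. No pair of libraries within a group was alike to within counting noise.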

Additional observations from a re-analysis of the deposited data

How the results depend on the processing

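S100a10, S100a11 and S100a7a stayed higher, and S100a13 lower, in all 13 alternatives. Dropping the filter and adding the replicate block could not change the difference of a member, so these alternatives carry no information on it. All 13 used libraries whose contrast chose the members, so their number is a description only. S100a1 was below 0 in all 13 but ranged from -0.29 to -0.02, and S100a6 was below 0 in 11. S100a10 ranged from 0.39 to 0.46, S100a11 from 0.32 to 0.43, S100a13 from -0.52 to -0.25 and S100a7a from 0.98 to 1.76. The median over measured members was 0.11 to 0.22. Leaving out 1 library gave 1057 to 1658 lower and 1021 to 1855 higher genes, 3 to 5 lower partner genes, 0 to 1 higher plasminogen genes and 0 to 3 higher neighbours (limma; with all libraries 3 plasminogen genes and 2 neighbours were higher at an unadjusted p under 0.05). Higher plasminogen genes numbered 0 without the filter and with protein-coding scaling, 2 with quantile normalization and edgeR, and 3 with DESeq2. Neighbours numbered 5 lower and 1 higher with protein-coding scaling, and 1 higher without the filter. The causes were not tested. Replicate numbers were not treated as pairs, since deviations of same-numbered libraries correlated at 0.03, -0.01 and 0.06; with the replicate block 3 partner genes were lower in place of 5, and 1525 genes were lower and 1676 higher. Control libraries did not all correlate best with their own number. Depth limits S100a3, S100a4, S100a7a and S100a16, at 0 to 100 reads per library.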
